A study of Mus musculus with 6 samples.

Results

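The 37 genes described here encode complement proteins, clotting factors, fibrinolysis proteins and their inhibitors that the liver releases into plasma. They were chosen by name, from a list of proteins known to be made by hepatocytes, and not by any measured value. Earlier results of these data were known when the choice was made. All 37 were found among the 45777 genes of the deposited expression table. RNA from mouse liver was sequenced to ask how loss of *Pak4*, a serine/threonine kinase, from hepatocytes changes gene expression during fasting. The WT group was 3 *Pak4* flox/flox mice, and the LKO group was 3 Alb-Cre; *Pak4* flox/flox mice. Both groups therefore carried the floxed allele, and only the LKO mice carried Cre. All were C57BL/6 males aged 8 weeks that had been fasted for 24 h, the WT mice were described as littermate controls, and each mouse gave 1 library.

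Hepatocytes make most of the complement and clotting proteins of blood. Complement is started by antibody (classical pathway), by sugars on microbes (lectin pathway) or spontaneously (alternative pathway), and the 3 routes meet at C3, after which C5 to C9 assemble a pore in the target membrane. Clotting is a chain of proteases in which thrombin finally turns fibrinogen into fibrin, and plasmin dissolves the fibrin again. Many of these proteins belong to the acute phase response, in which inflammatory cytokines raise or lower their output from the liver.

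The Cre of the LKO mice is made from the albumin promoter, so the deletion is meant for hepatocytes, whereas whole liver was sequenced. The 3 WT livers gave 268, 210 and 271 reads of *Pak4* and the 3 LKO livers 85, 52 and 149. Scaled, it was at 3.63 ± 0.445 CPM in the WT livers against 2.21 ± 0.900 in the LKO livers (mean ± SD, n = 3 each), its ranges overlapped, and a log2 difference of −0.71 ± 0.31 (SE) was not called (edgeR adjusted p = 0.101). With total counts it was −1.54 and called (edgeR adjusted p = 0.00560), or −0.64 relative to the median of all genes. Without LKO mouse 3, the highest LKO mouse for *Pak4*, it was −1.08 and called (edgeR adjusted p = 0.0152), and on log2(TPM + 1) it was −1.19 and called without overlap (limma adjusted p = 6.26e-04). WT libraries held 45934632 to 55205564 counts and LKO libraries 53936281 to 59576437. The labels and the study's methods name different kits for the libraries, the first selecting mRNA and the second removing rRNA from total RNA. In bulk liver, fewer cells of a type and less RNA per cell cannot be told apart.

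CPM, TPM and log2 fold changes are used for a gene's level and for its difference between genotypes. CPM are counts scaled to a common library size by TMM, with which edgeR sets the bulk of all genes level between libraries. TPM are the authors' values scaled per kilobase of transcript and to a common sum, and only they are used to compare 1 gene with another. Differences are log2 fold changes of LKO over WT mice from edgeR's quasi-likelihood test. Their standard error was derived as the absolute log2 fold change divided by the square root of the test's F statistic. A gene was called when its p, adjusted by Benjamini-Hochberg over all 18636 genes tested, was under 0.05. "Rose" and "fell" are used of called genes only.

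All 37 genes passed the filter on low counts, and 21 of them were called (56.8%), against 40.1% of all genes tested. Of the 37, 9 rose (24.3%, against 19.6% of all genes) and 12 fell (32.4%, against 20.5%). The remaining 16 were not called. With at least 10 counts in every sample, 59.5% of the 37 were called in either direction, against 48.8% of all genes. With protein-coding genes alone these shares were 54.1% and 45.1%. The CPM of the 3 WT and 3 LKO mice did not overlap in 24 of the 37 genes (64.9%, against 54% of all genes), namely in all 21 called genes and in *Cfi*, *F7* and *Serping1*. In LKO mice 7 genes were at least 2-fold higher and 6 at least 2-fold lower, and the share of all genes at this cutoff was not counted. The smallest of these changes were those of *Mbl1* (1.18) and *Masp2* (−1.13). Ranked by log2 fold change, they lay at percentiles 86.7 and 12.5 of all genes tested. The median log2 fold change was −0.21 over the 37 genes and −0.04 over all genes tested. Both directions were found in complement and in clotting.

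**Figure D1:**
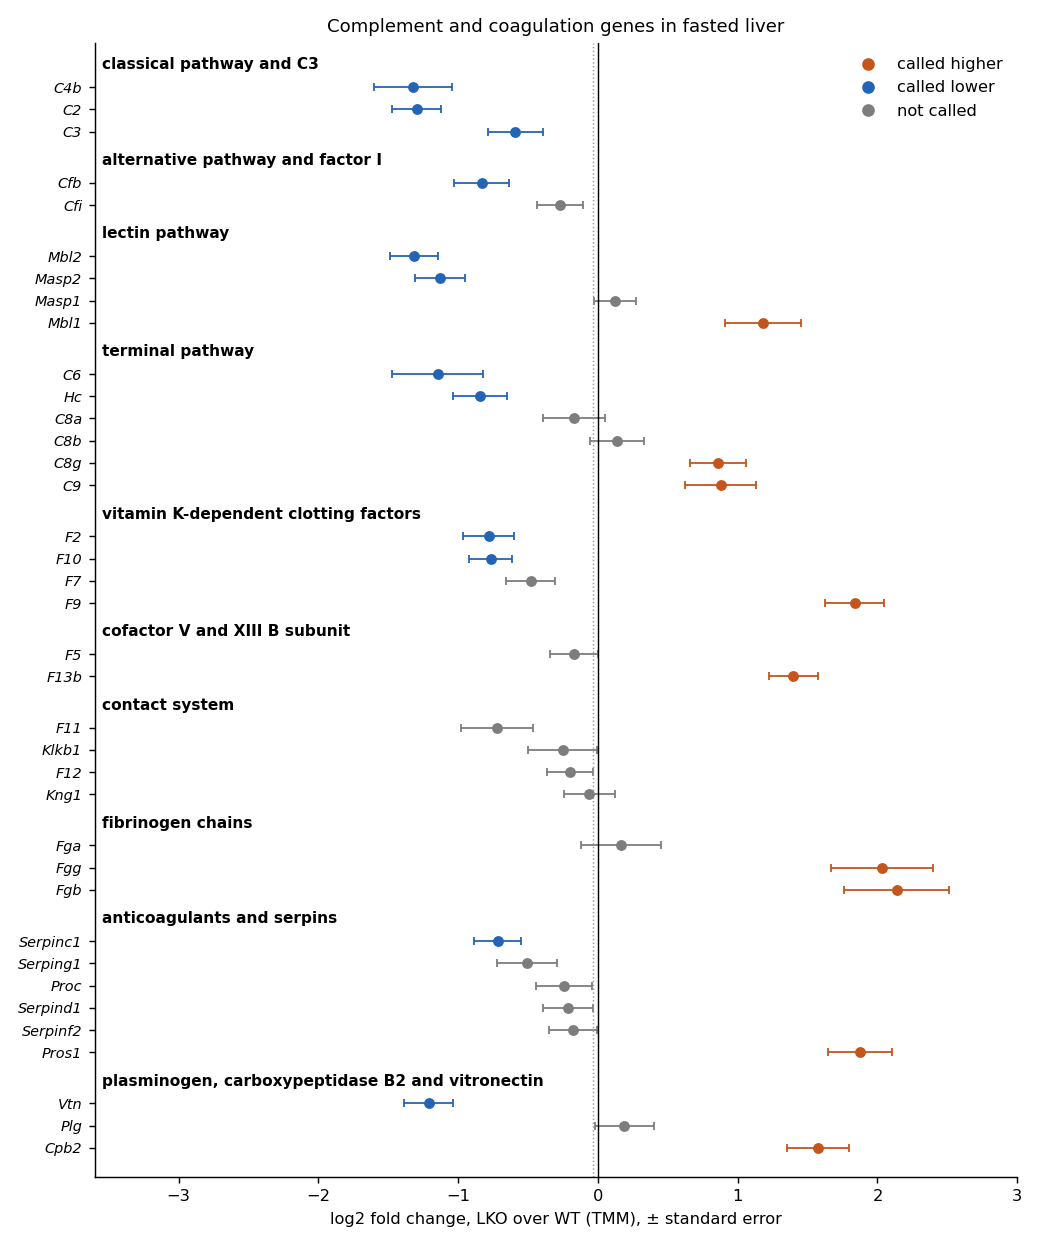
Log2 fold change of LKO over WT mice for the 37 genes after TMM scaling, sorted within roles (n = 3 mice per genotype). Bars give ± 1 standard error derived from the F statistic of the edgeR test. Orange marks the 9 genes called higher, blue the 12 called lower and grey the 16 not called, and the dotted line is the median of all genes tested at −0.04. *Fgb* (2.14) and *Fgg* (2.03) lie farthest to the right and *C4b* (−1.32) farthest to the left. With total counts *C9*, *C8g*, *Masp1*, *C8b*, *Fga* and *Plg* turn to values below 0.

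The number of these genes that read as higher or lower moved with the scaling. TMM factors were 1.28 to 1.43 in WT and 0.639 to 0.816 in LKO libraries, so TMM raises every LKO value against its WT value. When total counts replaced TMM, the median of all genes shifted to −0.90, 1167 genes were called higher (6.26%) and 9575 lower (51.4%), where TMM gave 3661 and 3815. Of the 37 genes, 6 then remained higher (*Fgb*, *Fgg*, *Pros1*, *F9*, *Cpb2* and *F13b*) and 28 were lower. On log2(TPM + 1) with limma, where the median of all genes was −0.79, 0 of the 37 were called higher, also at an unadjusted p under 0.05, against 2.43% of all genes, and 30 were called lower (81.1%, against 71.5% of all genes). Relative to the median of all genes the list's median was much the same with TMM (−0.18) and with total counts (−0.17), and lower on log2(TPM + 1) (−0.97). The 1 added to TPM shrinks the differences of genes at low TPM more than those of abundant genes such as these. The last value therefore does not compare like with like, and the part of the added 1 in it was not tested. The 37 genes took 3.07 to 3.48% of all counts in WT libraries and 2.30 to 3.15% in LKO libraries, and 1.85 to 2.16% and 1.00 to 1.40% of all TPM.

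**Figure D2:**
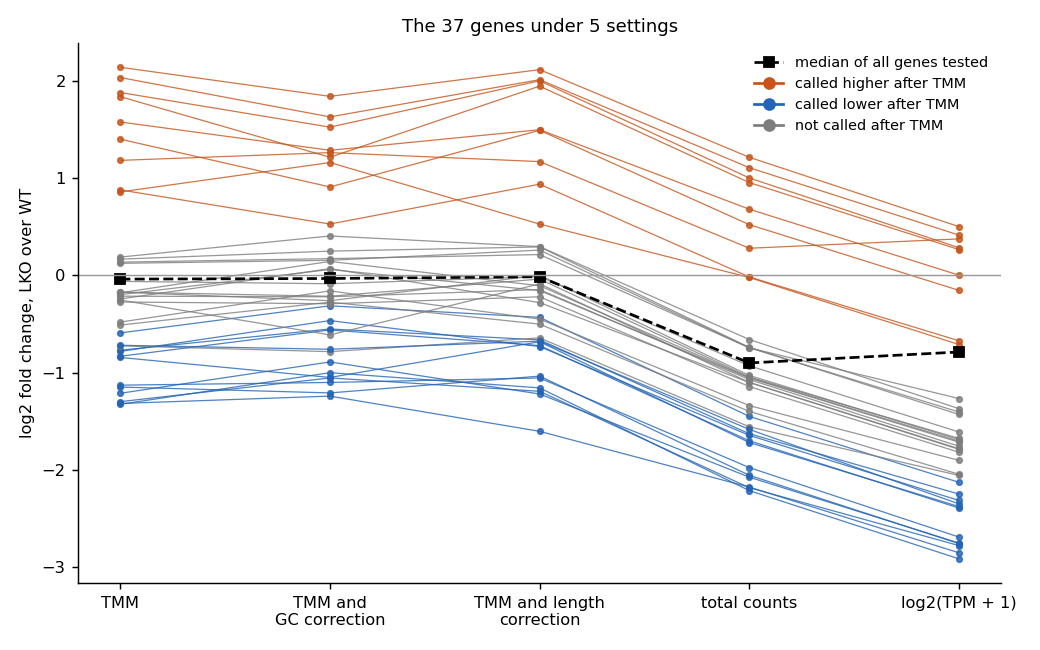
Log2 fold change of LKO over WT mice for each of the 37 genes (1 line each, coloured by its call after TMM scaling) with TMM, TMM with a correction for transcript GC content, TMM with a correction for gene length, total counts, and log2(TPM + 1). Black squares give the median of all genes tested, which is −0.04 with TMM, −0.90 with total counts and −0.79 on TPM. The lines drop with it from TMM to total counts. From total counts to TPM most lines drop further, whereas the median does not. The 6 genes that stay above 0.5 with total counts are *Fgb*, *Fgg*, *Pros1*, *F9*, *Cpb2* and *F13b*.

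The fibrinogen chains gave the 2 largest log2 fold changes of the 37 genes. Fibrinogen, the protein that forms the fibrin clot, is built from equal numbers of Aα, Bβ and γ chains, encoded by *Fga*, *Fgb* and *Fgg*. *Fgb* was at 2240.2, 2912 and 2585 CPM in the livers of WT mice 1, 2 and 3 against 7489, 17457 and 9099 in those of LKO mice 1, 2 and 3. The log2 difference was 2.14 ± 0.38 (edgeR adjusted p = 0.00291). *Fgg* was at 1986, 2607 and 1892 CPM in the WT livers against 5665, 13178 and 7677 in the LKO livers, with a log2 fold change of 2.03 ± 0.37 (edgeR adjusted p = 0.00319). Every LKO mouse lay above every WT mouse for both genes, and LKO mouse 2 was the highest for both. *Fga* was at 2452, 2848 and 2391 CPM in the WT livers against 1907, 3783 and 2939 in the LKO livers, so that its LKO values lay below, above and above the WT range, and its log2 fold change of 0.17 ± 0.29 missed the threshold (edgeR adjusted p = 0.673). That value was −0.08 without LKO mouse 2, and −0.74 with total counts.

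The ratio of *Fga* to *Fgb* within a mouse does not depend on the scaling between libraries. On TPM it was 0.562, 0.500 and 0.471 in the WT livers against 0.130, 0.111 and 0.165 in the LKO livers, so the ratio was 3.81-fold lower with no overlap (exact permutation test, two-sided, p = 0.1, which is the floor for 3 against 3 mice, and 0.133 after adjustment over 8 ratios). *Fgg* to *Fgb* stood at 0.835 ± 0.0916 in the WT against 0.784 ± 0.0514 in the LKO livers (SD, n = 3 each, exact permutation test, p = 0.4), and their ranges overlapped. The balance of *Fgg* to *Fgb* thus differed by less than the spread between mice, whereas that of *Fga* to *Fgb* lay apart in all 6 mice.

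The 3 genes lie next to each other on mouse chromosome 3 (GRCm38.p6 coordinates, equivalent to mm10). *Fga* runs from 83026153 to 83033627, *Fgb* from 83042246 to 83049863 and *Fgg* from 83007724 to 83015056. *Fga* lies between the others, 8.62 kb from *Fgb* and 11.1 kb from *Fgg*. The 250 bases before each start are shown, because 2 of these neighbours rose and the one between them was not called. They are RefSeq sequences of GRCm38.p6, 5′ to 3′ on the gene's own strand, with matches to 3 motifs on either strand in capitals, and they come from chr3:83025903-83026152 (plus strand), chr3:83049864-83050113 (minus strand) and chr3:83007474-83007723 (plus strand).
Fga: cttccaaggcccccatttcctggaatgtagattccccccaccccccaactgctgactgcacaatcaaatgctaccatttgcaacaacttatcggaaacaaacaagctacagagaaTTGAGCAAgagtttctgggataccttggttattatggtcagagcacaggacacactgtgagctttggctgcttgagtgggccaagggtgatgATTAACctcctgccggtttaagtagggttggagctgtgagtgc
Fgb: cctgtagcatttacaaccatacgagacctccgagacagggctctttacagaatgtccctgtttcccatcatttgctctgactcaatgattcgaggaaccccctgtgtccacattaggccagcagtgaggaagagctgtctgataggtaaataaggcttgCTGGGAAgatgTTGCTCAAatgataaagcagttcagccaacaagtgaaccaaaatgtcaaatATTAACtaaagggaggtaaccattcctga
Fgg: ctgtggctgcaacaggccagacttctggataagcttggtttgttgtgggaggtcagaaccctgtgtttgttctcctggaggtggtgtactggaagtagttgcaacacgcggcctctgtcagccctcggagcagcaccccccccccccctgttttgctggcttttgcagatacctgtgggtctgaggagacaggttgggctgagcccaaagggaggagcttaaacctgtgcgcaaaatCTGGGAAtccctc
The motifs searched were GTTAAT, a half-site of the hepatocyte factor HNF1, TTGCNNAA, a C/EBP site, and CTGGGAA, an element of genes that answer to interleukin-6. The HNF1 half-site was found before *Fga* (first base 43 before the start) and *Fgb* (29), the C/EBP site before *Fga* (135) and *Fgb* (80), and the interleukin-6 element before *Fgb* (91) and *Fgg* (13) but not in the window of *Fga*. RefSeq's table held a start for 28 of the 37 genes. Of these windows, 25% held GTTAAT against 6.43% of all 32851 promoters, 25% held TTGCNNAA against 9.56%, and 14.3% held CTGGGAA against 9.1%. The 4 genes with CTGGGAA were *Fgb*, *Fgg* and *F9*, which rose, and *Masp2*, which fell. A full PPAR response element, a direct repeat of the nuclear receptor half-site with a 1-base spacer, was in none of the 28 windows and in 0.0335% of all promoters. No motif match overlapped another in the 3 windows shown, and a match describes letters only.

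**Figure D3:**
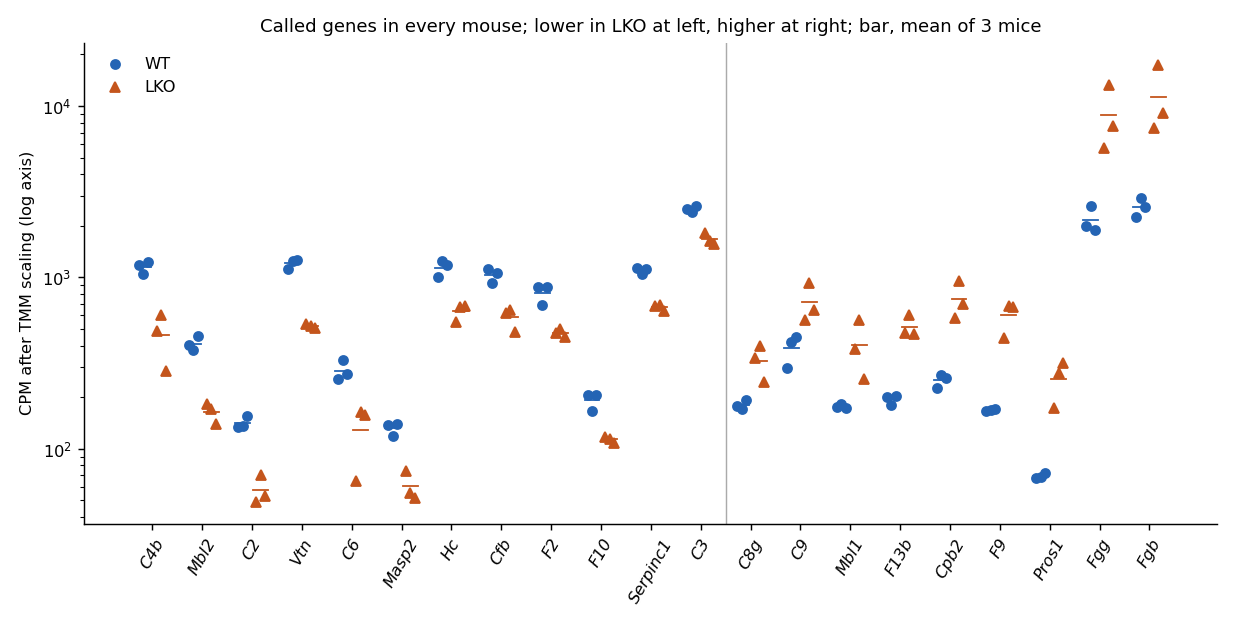
CPM after TMM scaling (log axis) of the 21 called genes in each of the 3 WT (blue circles) and 3 LKO mice (orange triangles), with a bar at each mean, genes called lower at left and genes called higher at right. No gene shows an overlap between the genotypes, and the LKO mice are spread more widely than the WT mice for *Fgb* and *Fgg*. With total counts, *C9*, *C8g* and *Mbl1* are no longer called and *C9* and *C8g* turn to values just below 0.

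Among the vitamin K-dependent clotting proteases, which carry γ-carboxylated glutamates, 1 rose and 2 fell. *F9*, factor IX of the intrinsic pathway, was at 166, 168 and 171 CPM in the WT livers against 442, 684 and 674 in the LKO livers, a log2 fold change of 1.84 ± 0.21 (edgeR adjusted p = 4.89e-04). The 3 WT livers lay close together for *F9* and all 3 LKO livers lay far above them. *F2*, prothrombin, ranged over 688 to 881 CPM in the WT livers against 449.6 to 502 in the LKO livers and fell by 0.78 ± 0.18 on the log2 scale (edgeR adjusted p = 0.00995). This call was lost with a correction for GC content, where *F2* was at −0.46 (adjusted p = 0.0809). *F10*, factor X, which joins the intrinsic and extrinsic routes and cleaves prothrombin, ranged over 166 to 207 CPM in the WT livers against 108 to 117 in the LKO livers and fell by 0.77 ± 0.15 on the log2 scale (edgeR adjusted p = 0.00488). *F7*, the protease that tissue factor binds to start clotting, was at 31.5 ± 4.67 CPM in the WT livers against 22.6 ± 3.47 in the LKO livers. Its ranges did not overlap, but its log2 fold change of −0.48 ± 0.18 missed the threshold (edgeR adjusted p = 0.0588), and without WT mouse 2 it was called. *F7* and *F10* are neighbours on chromosome 8, 1.50 kb apart.

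*F13b*, the carrier subunit of factor XIII, which cross-links fibrin, stood at 195 ± 13.1 CPM in the WT livers against 513 ± 77.4 in the LKO livers and rose by 1.40 ± 0.18 on the log2 scale (edgeR adjusted p = 6.87e-04), though on log2(TPM + 1) its value was −0.15 and was not called. *F5*, factor V, the cofactor of factor X, was at 401 ± 39.7 and 356 ± 40.2 CPM, with overlapping ranges and a log2 fold change of −0.17 ± 0.17.

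Of the 4 contact system genes 0 were called with edgeR's quasi-likelihood test, where 40.1% of all genes were. With exactTest and with DESeq2 1 (*F11*) was called, and 1 was at an unadjusted p under 0.05. With total counts all 4 were called lower, as were 51.4% of all genes. On log2(TPM + 1) all 4 were called lower too, as were 71.5% of all genes. The contact system starts the intrinsic pathway on foreign surfaces and releases bradykinin. *F12*, factor XII, was at 175, 136 and 183 CPM in the WT livers against 134, 142 and 154 in the LKO livers. *Klkb1*, plasma prekallikrein, was at 286, 313 and 426 CPM in the WT livers against 370.0, 279.6 and 209 in the LKO livers. *Kng1*, the high molecular weight kininogen that holds prekallikrein and factor XI, was at 1136, 1019.8 and 1172 CPM in the WT livers against 959, 1112 and 1117 in the LKO livers. The genotypes overlapped for all 3, and the log2 fold changes were −0.20 ± 0.16, −0.25 ± 0.25 and −0.06 ± 0.18. *F11*, factor XI, was at 24.1, 28.3 and 44.8 CPM in the WT livers against 24.7, 16.7 and 17.3 in the LKO livers, where WT mouse 3 was the highest and LKO mouse 1 lay within the WT range. Its log2 fold change of −0.72 ± 0.26 narrowly missed the threshold (edgeR adjusted p = 0.0542), which it passed without WT mouse 1 or LKO mouse 1. *F11* and *Klkb1*, related proteases that lie 4.63 kb apart, had an *F11* to *Klkb1* ratio of TPM of 0.191, 0.205 and 0.241 in WT and 0.154, 0.133 and 0.189 in LKO mice (1.35-fold lower, exact permutation test, p = 0.1, adjusted 0.133).

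The inhibitors of clotting split as well. *Pros1*, protein S, the cofactor with which activated protein C degrades factors V and VIII, was at 68.0, 68.9 and 72.3 CPM in the WT livers against 174, 278 and 318 in the LKO livers, a log2 fold change of 1.88 ± 0.23 (edgeR adjusted p = 6.11e-04). The lowest LKO liver, mouse 1, lay far above the highest WT liver. *Serpinc1*, antithrombin, the main inhibitor of thrombin and factor X, ranged over 1047 to 1138 CPM in the WT livers against 639 to 692 in the LKO livers and fell by 0.72 ± 0.17 on the log2 scale (edgeR adjusted p = 0.0110). *Proc*, protein C itself, was not called (−0.24 ± 0.20), nor were *Serpind1*, heparin cofactor II (−0.21 ± 0.18), *Serpinf2*, the α2-antiplasmin that blocks plasmin (−0.18 ± 0.17), and *Serping1*, the C1 inhibitor of complement and of the contact system (−0.51 ± 0.21, edgeR adjusted p = 0.0910). *Serping1* CPM were 255 to 378 in the WT against 170.2 to 246 in the LKO livers and did not overlap.

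Of the genes around fibrinolysis, *Cpb2* encodes the carboxypeptidase that slows it by trimming fibrin. *Cpb2* was at 225, 268 and 258 CPM in the WT livers against 578, 959 and 703 in the LKO livers and rose by 1.58 ± 0.22 on the log2 scale (edgeR adjusted p = 0.00114). *Vtn*, vitronectin, an adhesion protein that also blocks the complement pore, was at 1115, 1241 and 1265 CPM in the WT livers against 538, 519 and 507 in the LKO livers. It fell by 1.21 ± 0.17 on the log2 scale (edgeR adjusted p = 0.00118), with LKO mice close together and all below WT mice. *Plg*, plasminogen, the precursor of plasmin, overlapped between WT livers (563 to 701 CPM) and LKO livers (605 to 895 CPM). The log2 difference was 0.19 ± 0.21 and turned to −0.66 with total counts.

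All 3 listed genes of the classical pathway and its meeting point with the others fell, where 20.5% of all genes did. *C4b*, complement C4, was at 1178, 1048 and 1233 CPM in the WT livers against 488, 607 and 286 in the LKO livers. *C2*, the protease that C4 binds, was at 135, 136 and 155 CPM in the WT livers against 49.1, 70.6 and 53.2 in the LKO livers. *C4b* fell by 1.32 ± 0.28 and *C2* fell by 1.30 ± 0.18 on the log2 scale (edgeR adjusted p = 0.00656 and 9.44e-04), and every LKO mouse was below every WT mouse for both. *C3*, the central component, ranged over 2423 to 2605 CPM in the WT livers against 1566 to 1811 in the LKO livers. *C3* fell by 0.59 ± 0.20 on the log2 scale (edgeR adjusted p = 0.0437), but this call was lost when any 1 of the 6 mice was left out, with adjusted p from 0.0589 to 0.128, and with DESeq2 size factors, upper-quartile scaling, protein-coding genes alone, and corrections for gene length or GC content.

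*Cfb*, factor B of the alternative pathway and the counterpart of C2 there, ranged over 924 to 1126 CPM in the WT livers against 482 to 647 in the LKO livers and fell by 0.83 ± 0.20 on the log2 scale (edgeR adjusted p = 0.0109), a call that was lost with a correction for GC content (adjusted p = 0.0608). *Cfi*, factor I, which cuts C3b and C4b, was at 405 ± 17.6 and 335 ± 42.3 CPM and was not called (−0.27 ± 0.17), though its ranges did not overlap. *C2*, *Cfb* and *C4b* lie together on chromosome 17 with *C4a*, a near copy of *C4b*. *C2* lies 87 bases from *Cfb*, and *C4b* lies 65.2 kb from *C4a*, which fell by 1.48 ± 0.28 on the log2 scale. All 4 genes fell. Reads of *C4a* and *C4b* may be split between the copies by the authors' counting, so the single values are uncertain. The *Cfb* to *C2* ratio of TPM was 7.19 ± 0.780 in the WT against 9.98 ± 1.98 in the LKO livers (SD, n = 3 each), 1.38-fold higher with no overlap (exact permutation test, p = 0.1, adjusted 0.133).

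Among the 8 ratios examined, the one between the 2 mannose-binding lectins differed most. *Mbl1* and *Mbl2* encode mannose-binding lectins A and C, which recognise sugars on microbes. *Mbl1* was at 176, 183 and 173 CPM in the WT livers against 385, 565 and 256 in the LKO livers. *Mbl2* was at 402, 376 and 452 CPM in the WT livers against 183, 171 and 140.0 in the LKO livers. *Mbl1* rose by 1.18 ± 0.27 (edgeR adjusted p = 0.00928) and *Mbl2* fell by 1.32 ± 0.17 (edgeR adjusted p = 8.42e-04) on the log2 scale, without overlap between the genotypes, although with total counts *Mbl1* was at 0.28 and not called. The ratio of *Mbl1* to *Mbl2* TPM was 0.199, 0.218 and 0.195 in WT and 1.66, 2.94 and 1.46 in LKO mice, a 9.44-fold difference (exact permutation test, p = 0.1, adjusted 0.133). On counts the same ratio differed 5.38-fold.

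The length implied by the values of *Mbl1* also differed between the genotypes. The read count divided by FPKM, relative to the median of that ratio in the library, stands for the length to which the reads of a gene were scaled. For *Mbl1* it was 0.894, 0.907 and 0.793 in WT and 0.512, 0.446 and 0.500 in LKO mice, a log2 difference of −0.83. In the other 36 genes this difference lay between −0.09 (*Masp1*) and 0.07 (*Serpinc1*). Single transcripts of *Mbl1* were not analysed here.

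The proteases of the lectins differed too. *Masp1*, the protease that activates MASP-2, was at 41.4, 49.3 and 51.2 CPM in the WT livers against 53.5, 55.2 and 45.8 in the LKO livers, with overlap and no call (0.12 ± 0.15). *Masp2*, which cleaves C4 and C2, was at 138, 118 and 139 CPM in the WT livers against 74.0, 55.3 and 51.6 in the LKO livers and fell by 1.13 ± 0.18 on the log2 scale (edgeR adjusted p = 0.00177). The *Masp1* to *Masp2* ratio of TPM was 0.177, 0.226 and 0.225 in WT and 0.456, 0.677 and 0.546 in LKO mice, a 2.66-fold difference (exact permutation test, p = 0.1, adjusted 0.133). *Masp1* overlaps *Rtp4* and *Masp2* overlaps *Tardbp* in the annotation, as do *C8a* and *Fyb2*, *F2* and *Ckap5*, and *Serpind1* and *Pi4ka*, and reads of overlapping genes may not have been told apart.

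The genes of the membrane pore ran in both directions. *Hc*, complement C5, ranged over 1005 to 1242 CPM in the WT livers against 552 to 681 in the LKO livers and fell by 0.84 ± 0.19 on the log2 scale (edgeR adjusted p = 0.00898). *C6*, which joins C5b, was at 254, 330.3 and 274 CPM in the WT livers against 65.0, 165 and 158 in the LKO livers, with LKO mouse 1 far below the others. *C6* fell by 1.15 ± 0.33 on the log2 scale (edgeR adjusted p = 0.0235), and this call was lost without WT mouse 2 (adjusted p = 0.0653). *C9*, which polymerises into the pore, ranged over 294 to 449.8 CPM in the WT livers against 568 to 929 in the LKO livers. *C9* rose by 0.88 ± 0.25 on the log2 scale (edgeR adjusted p = 0.0241), but it was not called without WT mouse 1, WT mouse 2 or LKO mouse 2, stood at −0.02 with total counts, and was called lower on TPM.

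C8 is a complex of α, β and γ chains encoded by *C8a*, *C8b* and *C8g*, of which the γ chain is a lipocalin. *C8g* ranged over 171 to 192 CPM in the WT livers against 247 to 396 in the LKO livers and rose by 0.86 ± 0.20 (edgeR adjusted p = 0.00999), turning to −0.02 with total counts and to −0.71, called lower, on TPM. *C8a* (−0.17 ± 0.22) and *C8b* (0.14 ± 0.20) were not called. On TPM the ratio of *C8g* to *C8b* was 1.77, 1.48 and 1.41 in WT and 3.19, 2.60 and 1.91 in LKO mice (1.62-fold higher, exact permutation test, p = 0.1, adjusted 0.133). The ratio of *C8a* to *C8b* was 1.19 ± 0.143 in WT and 0.999 ± 0.235 in LKO mice, with overlap (p = 0.3, exact permutation test). *C8g* overlaps *Fbxw5* in the annotation.

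**Figure D4:**
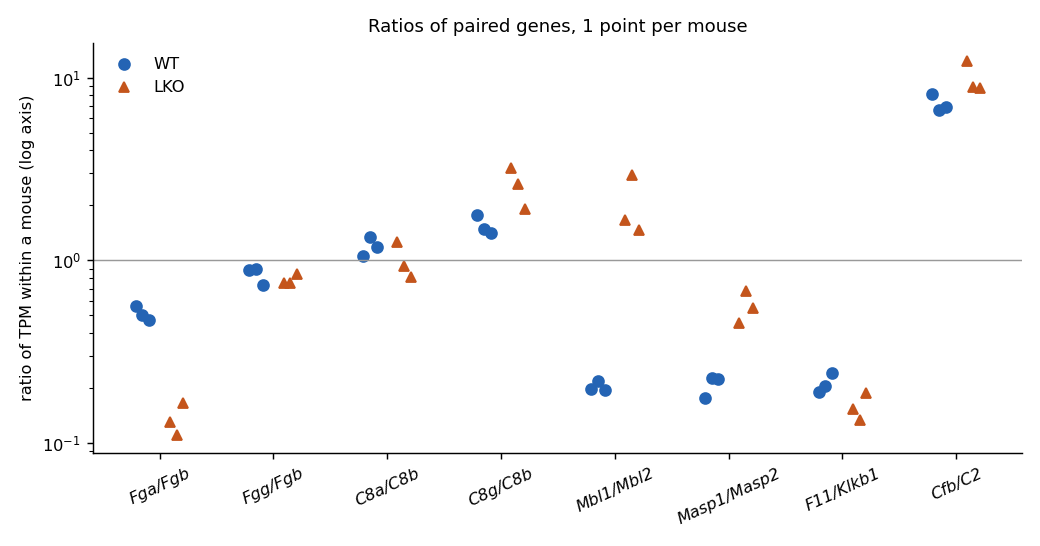
Ratios of TPM between 2 genes within each mouse (log axis), with WT mice as blue circles and LKO mice as orange triangles. *Mbl1*/*Mbl2* lies between 0.195 and 0.218 in WT and between 1.46 and 2.94 in LKO mice, and *Fga*/*Fgb* between 0.471 and 0.562 and between 0.111 and 0.165. The ranges overlap for *Fgg*/*Fgb* and *C8a*/*C8b*, and 3 mice against 3 cannot give a p under 0.1.

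Per length, the order of the 37 genes was led by fibrinogen in both genotypes. *Fgb* (2987 ± 533 TPM in WT, 4293 ± 1211 TPM in LKO mice) and *Fgg* (2505 ± 614 and 3357 ± 897 TPM) were the most abundant, followed by *Fga* (1520.2 ± 245 and 571 ± 134 TPM). In WT mice *Vtn* (1361 ± 123 TPM), *Serpinc1* (1117 ± 41.4 TPM) and *Kng1* (1083 ± 27.4 TPM) came next. At the other end stood *F7* (32.1 ± 2.81 TPM), *F11* (27.5 ± 8.03 TPM) and *Masp1* (24.7 ± 2.98 TPM). Of the 36 pairs of neighbours in this order, 25 had overlapping WT ranges and 11 did not. *Fgb* and *Fgg* overlapped in WT mice, as did *Serpinc1* and *Kng1*, whereas *Fgg* lay above *Fga* and *Vtn* above *Serpinc1* in all WT mice.

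In LKO mice *Cpb2* stood in the fifth place on TPM (335 ± 41.8 TPM), up from place 18 in WT mice (334 ± 42.9 TPM), while *Vtn* went from place 4 to place 10 and *C4b* from place 12 to place 26. These are places among 37 genes, and overlap between neighbouring places was not counted in LKO mice. There, *C3* at place 6 (226 ± 42.9 TPM), *Vtn* (203 ± 35.2 TPM) and *Plg* at place 12 (179 ± 64.1 TPM) had overlapping ranges. The TPM of LKO mice lay below those of WT mice in 31 genes (against 74.9% of all genes tested) and above in none (2.98% of all genes), and overlapped in *Mbl1*, *F9*, *Fgb*, *Fgg*, *Pros1* and *Cpb2*.

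A list of 61 other genes of the same pathways, outside the 37, was examined beside them. Of the 58 tested, 20 rose (34.5%, against 19.6% of all genes), 14 fell (24.1%, against 20.5%) and 24 were not called, with a median log2 fold change of 0.14. *Fcnb* had no read in any mouse, and with total counts the split turned to 6 higher (10.3%, against 6.26% of all genes) and 25 lower (43.1%, against 51.4%). Without WT mouse 1, 13 of them were higher (22.4%, against 15.5% of all genes). The 6 largest rises were those of *Fcna* (2.05 ± 0.20), ficolin A, *Vwf* (1.96 ± 0.23), von Willebrand factor of endothelium, *Vsig4* (1.92 ± 0.27), the C3b receptor of Kupffer cells, *C7* (1.86 ± 0.56), *Colec10* (1.80 ± 0.16), a collectin, and *Cfhr2* (1.55 ± 0.28), a relative of factor H. *C7* ranged over 0.620 to 1.53 CPM in the WT livers against 1.18 to 4.82 in the LKO livers, so that its genotypes overlapped despite the call. Among the largest falls were those of *Itgax* (−3.17 ± 0.39), *Serpine2* (−2.66 ± 0.41), *Cfd* (−1.76 ± 0.57), *C1s2* (−1.64 ± 0.37) and *C4a* (−1.48 ± 0.28).

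*Cfd*, factor D, which cleaves factor B, was at 2.75, 1.27 and 1.27 CPM in the WT livers against 0.682, 0.745 and 0.151 in the LKO livers. *C1s2* belongs to the proteases of C1, of which *C1ra* (−1.47 ± 0.15), *C1rb* (−1.41 ± 0.17) and *C1s1* (−1.19 ± 0.19) also fell. These 3 were picked out after their values were seen. *Kng2*, the near copy of *Kng1*, rose by 0.92 ± 0.20 (edgeR adjusted p = 0.00695) where *Kng1* was at −0.06 ± 0.18, and reads may be split between the copies. The list contains genes of endothelium and macrophages, so it is not a list of hepatocyte products.

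Markers of the cell types of liver moved between the genotypes, and the marker lists hold none of the 37 genes. Of 10 hepatocyte markers 6 rose and 2 fell (*Trf*, transferrin, and *Ttr*, transthyretin), and their summed level was 48558 to 54312 CPM in the WT and 124316 to 143997 CPM in the LKO livers, with *Alb*, albumin, the most abundant per length in both. Of 7 Kupffer cell markers 3 rose and 1 fell (256 to 383 CPM in the WT and 379 to 752 CPM in the LKO livers, *Cd5l* most abundant), 5 of 7 of sinusoidal endothelium rose (239 to 279.6 and 435 to 450.4 CPM, *Clec4g* most abundant), and 4 of 7 of stellate cells rose (236 to 279 and 645 to 965 CPM, *Dcn* most abundant). Of 4 cholangiocyte markers tested, 1 fell (*Spp1*, the most abundant, with the list at 32.9 to 50.2 and 13.7 to 30.2 CPM). Of 6 lymphocyte and neutrophil markers tested 2 rose and 1 fell, with the list at 47.4 to 68.9 CPM in the WT and 39.8 to 69.3 CPM in the LKO livers (*Ptprc* the most abundant in WT and *S100a9* in LKO mice). Further, 2 of 9 platelet and erythrocyte markers rose (*Hbb-bs*, the most abundant, and *Hbb-bt*, with the list at 141 to 279.6 CPM in the WT and 859.5 to 1614 CPM in the LKO livers). The summed TPM did not always run the same way. On TPM the hepatocyte list was at 42743 to 48666 in the WT and 32695 to 47944 in the LKO livers, the Kupffer cell list at 191 to 310.4 and 117 to 178, the sinusoidal endothelium list at 127 to 169 and 89.4 to 134, and the stellate cell list at 137 to 179 and 181 to 249.9. Of these, the Kupffer cell list was thus lower in LKO mice on TPM, the hepatocyte and endothelium lists overlapped and the stellate cell list stayed higher. No marker was at 0 in all 6 mice. Their part in the results for the 37 genes was not tested.

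GC content of the transcript moved with the result. A value was available for all 37 genes and for 16376 of the 18636 genes tested (87.9%). The median GC content was 43.4% in the 9 genes that rose, 52.2% in the 12 that fell and 48.1% in the 16 not called. Across the 37 genes, which are not independent replicates and share the same 6 libraries, GC content and log2 fold change had r = −0.56 and rho = −0.48, and across all genes r = −0.21 and rho = −0.26. Of the 873 genes with under 40% GC, 413 were called higher and 33 lower (median log2 fold change 0.68), and of the 3347 with 52 to 56% GC, 368 were called higher and 1017 lower (median −0.34).

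With a correction for GC content in each library, chosen after the data had been seen, 8 of the 37 genes were higher (17.4% of all genes were) and 9 lower (18.3% of all genes). *C3* (−0.31), *Cfb* (−0.56), *F2* (−0.46) and *C9* (0.53) were then no longer called. Across the 37 genes, GC content and the corrected log2 fold change still had r = −0.37 and rho = −0.28. With the replicate block beside the GC correction 8 were higher (14.3% of all genes were) and 8 lower (14.8%), and with gene length beside it 8 and 8 (17.1% and 16.4%). The replicate block alone gave 9 and 11 (16.8% and 17.7%), and with gene length 8 and 10 (17.1% and 16.4%). The values of *F9* went from 1.84 to 1.21, of *Pros1* from 1.88 to 1.52, of *Fgb* from 2.14 to 1.84 and of *Fgg* from 2.03 to 1.63, all still called. After the correction *Mbl1* was at 1.26, *Mbl2* at −1.24 and *Fga* at 0.25. *Mbl1* and *Mbl2* are alike in GC content (49.1% and 49.1%), whereas *Fga* (49.3%) is richer than *Fgb* (44.1%).

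**Figure D5:**
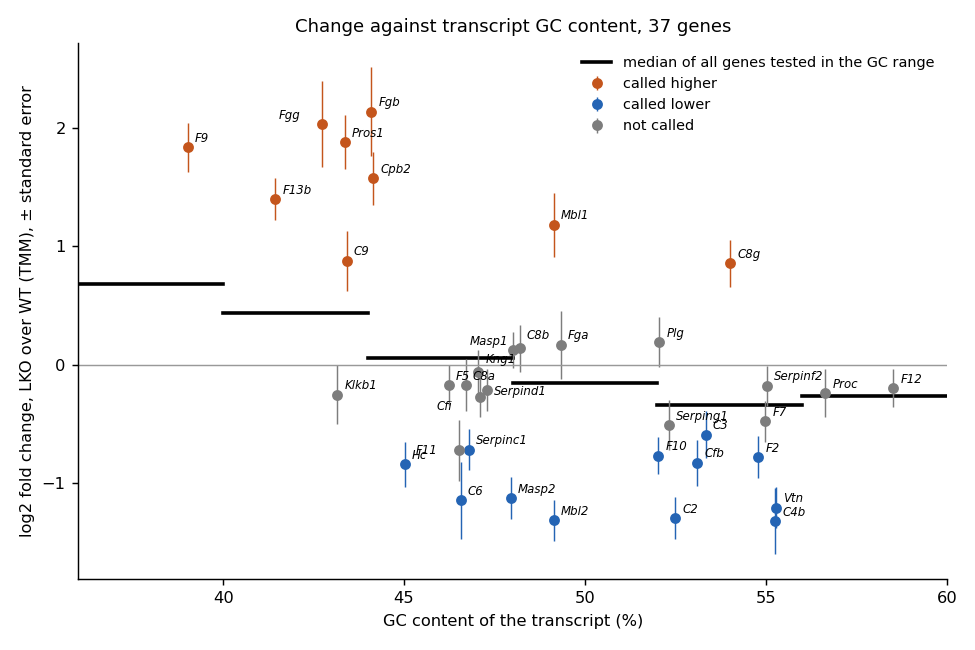
Log2 fold change of LKO over WT mice after TMM (± 1 standard error) against the GC content of the transcript in percent, for the 37 genes, with orange for called higher, blue for called lower and grey for not called. Black bars give the median of all genes tested in each range of GC content, which falls from 0.68 under 40% to −0.34 between 52 and 56%. *Fgb*, *Fgg*, *Pros1*, *F9* and *Cpb2* lie well above the bar of their own range, and *Mbl1* and *Mbl2* lie on opposite sides of theirs at nearly the same GC content.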

How the data were processed

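Liver RNA of 3 WT and 3 LKO mice was sequenced by the authors in paired reads, with 1 library per mouse, and the labels' genotype gave each sample its group. The submitters' processing notes name bcl2fastq 2.20.0, FastQC 0.11.7, HISAT2 2.1.0, Bowtie2 2.3.4.1 and StringTie 2.1.3b with the mm10 build. The authors deposited a table of 45777 genes with read counts estimated by StringTie from coverage and not normalized. The same deposited table holds FPKM, which StringTie scales by transcript length and library size, and TPM, which the authors' run scaled to the same sum in each library. The use of strand in counting is not given in the sources used here, so overlapping genes may not have been told apart.

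Genes with more than 1 zero count were left out, as in the study's methods, which left 18636. Counts were compared with edgeR 4.0.16 (glmQLFit and glmQLFTest, TMM, genotype as the only factor, two-sided, R 4.3.3) and p was adjusted by Benjamini-Hochberg over all genes tested, with a threshold of 0.05. The common biological coefficient of variation over all genes stood at 0.254. The study's own test, exactTest of edgeR, was run as an alternative, and its log2 transformation of counts before TMM was not repeated. Ratios within a mouse were computed on TPM and tested by exact permutation of the genotypes, two-sided. FPKM entered only the relative transcript length. Errors are SDs over 3 mice or standard errors derived from the F statistic. The number of mice limits precision more than the depth of 45934632 to 59576437 counts per library. The quasi-likelihood test, exactTest, DESeq2, limma and the GC correction were tried on simulated data, and the other settings were not.

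Alternatives were DESeq2 1.42.0 and its size factors, upper-quartile scaling, total counts, limma 3.58.1 on log2(TPM + 1), no filter, at least 10 counts in every sample, filterByExpr, protein-coding genes alone, a replicate block, a gene length correction (lowess, span 0.3, as an offset), and leaving out each mouse. Corrections for the GC content of a single GENCODE transcript per gene were chosen after seeing the data. The transcript was the longest with a RefSeq match, failing that the longest protein-coding transcript, and failing that the longest. The 37 genes, the other lists and the tests were chosen with earlier results of these data known.

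All 37 genes were named. The values of every mouse are printed for the 5 largest rises and falls and for the fibrinogen, lectin and contact groups. Of the other pathway genes, the 6 largest rises and falls among called genes averaging 1 CPM or more were named, except 1 fall that is not reported here, with the near copies *Kng2* and *C4a*, and of the markers the most abundant of each list. Coordinates and promoters come from RefSeq tables of GRCm38.p6.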

Additional observations from a re-analysis of the deposited data

How the results depend on the processing

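When libraries were scaled by total counts, 1167 genes were higher and 9575 lower among all genes, 6 and 28 among the 37, and 6 and 25 among the other pathway genes. With limma on log2(TPM + 1), where test, log transformation, length and library scaling all differ together, these were 453 and 13322, 0 and 30, and 1 and 42. Turned directions with total counts were −0.74 for *Masp1*, −0.74 for *C8b*, −0.022 for *C8g*, −0.017 for *C9*, −0.74 for *Fga* and −0.66 for *Plg*. On TPM they were −1.27 for *Masp1*, −1.40 for *C8b*, −0.71 for *C8g*, −0.67 for *C9*, −0.15 for *F13b*, −1.43 for *Fga* and −1.37 for *Plg*. *Kng1* was at 0.017 with upper-quartile scaling. *F5* was at 0.000636 with the length correction and 0.0046 with the replicate block as well. With the GC correction alone, with the replicate block and with gene length, *F12* was at 0.060, 0.069 and 0.053 and *Serpinf2* at 0.14, 0.15 and 0.17, and *Proc* was at 0.069 and 0.048 with the first 2. Of the genes with a turned value only *C8g*, *C9* and *F13b* had been called with TMM. The cause of these shifts was not tested.

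Leaving out each mouse gave 8 to 9 higher and 11 to 12 lower of the 37 genes, 2796 to 3517 and 2855 to 3792 of all genes, and 13 to 19 and 11 to 14 of the other pathway genes, where 13 came without WT mouse 1. Over these 6 fits *Kng1* ranged from −0.14 to 0.0067 (without LKO mouse 1), *Fga* from −0.081 (without LKO mouse 2) to 0.39 and *Plg* from −0.0079 (without LKO mouse 3) to 0.29. Of the 21 called genes, *C3* was lost in all 6 fits, *C9* in 3 and *C6* in 1, and *F11* was gained in 2 and *F7* in 1, as was *Pak4* in 1. All 8 ratios kept their direction in every fit and on counts.

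Mice with the same number did not deviate together (r across genes −0.0051, −0.039 and −0.049), so expression gave no sign of pairing by number. These values cannot show whether mice with the same number were littermates or were handled together. With the replicate block, 9 of the 37 genes were higher and 11 lower (*C3* lost), with 3129 and 3302 of all genes. The length correction with the block lost *Cfb* and *C8g* as well (3179 and 3047 of all genes), the GC correction with the block gave 8 and 8 (*C3*, *Cfb*, *C9*, *F2* and *F10* lost, with 2657 and 2760 of all genes) and GC with length 8 and 8 (*C3*, *C4b*, *Cfb*, *C9* and *F2* lost, with 3179 and 3059 of all genes). No filter, filterByExpr, exactTest, DESeq2 and the 10-count filter lost none of the 21 calls, and the last 3 gained *F11*.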

Other observations

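Neighbouring genes of these families did not always move together. The kininogen gene *Kng1* (−0.06 ± 0.18, not called) lies 29.1 kb from its copy *Kng2* (0.92 ± 0.20, called higher), which lies 24.2 kb from *Hrg* (1.55 ± 0.24, called higher), the gene of histidine-rich glycoprotein, on chromosome 16. On chromosome 15, *C6* (−1.15 ± 0.33) fell and *C7* (1.86 ± 0.56), the next component of the pore, rose at a far lower level, with 184 kb between them and with overlapping CPM for *C7*. On chromosome 8, *F7* (−0.48 ± 0.18), *F10* (−0.77 ± 0.15) and *Proz* (−0.68 ± 0.24), which encodes protein Z, all had values below 0, and only *F10* was called. *Hrg* and *Proz* were picked out after their values were seen, and differences between neighbours were not tested.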
